A study of Arabidopsis thaliana with 12 samples.

Results

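The RNA levels of 4 Arabidopsis thaliana genes of the endoplasmic reticulum (ER) were followed over 12 Affymetrix arrays: CRT1B (AT1G09210), ERDJ3B (AT3G62600), AT4G29520 and BZIP28 (AT3G10800). Each gene was read from the probe set that the platform annotation pairs with that gene alone, and all 4 had exactly 1 such probe set among the 10396 single-gene probe sets of a table of 18465. The set was chosen by the measured signals of these arrays, in which CRT1B, ERDJ3B and AT4G29520 had stood out in heated QK seedlings, and how far the wild-type arrays entered the choice is not recorded. Every comparison that uses a QK array is therefore given for these 4 genes as a description without a test. The tests below concern the wild-type arrays, and other ER genes.

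The seedlings were 7 days old and had grown at 22 °C on half-strength medium (0.5x MS) with 1% sucrose. QK heat seedlings and QK control seedlings belong to the line labelled QK mutant. Published work describes QK as a line without 4 heat shock factors of class A1, activators that start the cytosolic heat shock response. It combines alleles from Ws and Col-0, so that neither accession is its exact wild type, and the genes it lacks are not analysed here. Ws heat, Ws control, Col-0 heat and Col-0 control seedlings belong to the wild-type accessions Ws and Col-0. The heat groups spent 1 h at 37 °C and the other groups are labelled as controls. Each of the 6 groups had 2 arrays from 2 biological replicates of seedlings, where a change in RNA per cell and a change in the share of a cell type cannot be told apart. With 2 arrays per group the number of arrays limits the precision of every value.

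The ER is the compartment where secreted and membrane proteins are folded. Calreticulins and calnexins hold newly made glycoproteins there until they are folded, while HSP70 proteins of the BiP type and their J-domain partners bind exposed hydrophobic stretches. When unfolded proteins build up, the membrane-anchored transcription factor bZIP28 is carried to the Golgi and cut, its released part enters the nucleus, and genes for ER chaperones are switched on. This unfolded protein response runs beside the cytosolic heat shock response and is known to be started by heat as well. CRT1B is a calreticulin, ERDJ3B is a J-domain co-chaperone of BiP in the ER, and BZIP28 encodes bZIP28. AT4G29520 encodes a protein of the ER that has been described as a chaperone in salt-stressed Arabidopsis.

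Both Col-0 arrays of replicate 2 went against their treatment labels. The summed signal of 4 heat shock genes (HSP17.6C, HSP26.5, HOP3 and HSC70-2, of 9 listed for this check) was 283.6 at heat and 22334.3 at control in the Col-0 pair labelled replicate 2, and 21742.3 at heat and 108.7 at control in the pair labelled replicate 1. It was 19948.9 and 24081.7 in the Ws heat arrays, and 144.7 and 226.1 in the Ws control arrays. In QK it was 80.1 and 1150.6 at heat and 87.0 and 86.3 at control. The groups were kept as labelled, comparisons of QK and Ws were fitted on the 8 arrays of those lines alone, and each comparison with Col-0 is given with all 12 arrays and with the 10 arrays left without that pair. Of 6 leaf markers RCA alone had a single-gene probe set, and it lay between 8543.4 and 14175.2 over the 12 arrays. Of 5 root markers PYK10 and AT5G54370 had one, and their summed signal was 3672.8 and 3354.8 in QK heat, 6357.7 and 7239.2 in QK control, 1760.3 and 1424.6 in Ws heat, and 5013.3 and 3938.7 in Ws control. Root marker signal was thus lower at heat in both lines, none of the markers was at 0, and their part in the results below was not tested.

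CRT1B was higher in heated QK seedlings than in every other group. Heated QK gave a CRT1B signal of 4476.0 in replicate 1 and 6978.3 in replicate 2, and QK control seedlings gave 520.0 and 1270.2. Heated Ws gave 893.7 and 1202.6, and Ws control 622.4 and 1014.8. No array outside QK heat exceeded 1270.2, and the other 5 groups overlapped with their neighbours in the order of the means. CRT1B averaged 5727 ± 1769 in QK heat and 895 ± 530 in QK control (SD, n = 2 each), a 6.75-fold change of the signal plus 16, the constant added before taking log2. Without QK control replicate 1 this log2 change was 2.12, and without QK control replicate 2 it was 3.39, instead of 2.76. The Ws means were 1048 ± 218 at heat and 819 ± 277 at control (SD, n = 2 each). In heated seedlings the CRT1B level of QK was 5.32-fold that of Ws, and at control 1.02-fold.

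ERDJ3B was also highest in heated QK, and its Ws heat arrays lay above all arrays of the remaining 4 groups. Heated QK had ERDJ3B signals of 1518.5 and 2325.1, and QK control had 371.8 and 488.4. For Ws the signals were 682.0 and 714.2 at heat, and 365.4 and 490.2 at control. The heat and control arrays did not overlap in either line. ERDJ3B averaged 1922 ± 570 in QK heat and 430.1 ± 82.4 in QK control (SD, n = 2 each), a 4.29-fold change, while its change in Ws was 1.62-fold. In heated seedlings the ERDJ3B level of QK was 2.65-fold that of Ws, and at control 1.01-fold.

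AT4G29520 was also highest in heated QK, and its Ws heat arrays came next. It reached 810.3 and 1048.0 in heated QK, against 76.1 and 117.2 in QK control. The Ws arrays held 335.6 and 251.2 at heat, and 86.0 and 91.3 at control. Both heat groups lay clear of all control arrays, and the QK heat arrays lay clear of the Ws heat arrays. AT4G29520 averaged 929 ± 168 in QK heat and 96.7 ± 29.1 in QK control (SD, n = 2 each), an 8.47-fold change, while the Ws means were 293.4 ± 59.7 at heat and 88.65 ± 3.75 at control (SD, n = 2 each), a 2.93-fold change. The ratio of QK to Ws for AT4G29520 was 3.06 at heat and 1.06 at control.

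BZIP28, the regulator, was not raised in heated QK in this way, and its highest values came from wild-type arrays. QK seedlings had 280.2 and 276.7 at heat, and 238.6 and 272.1 at control. Ws seedlings had 473.5 and 372.2 at heat, and 287.7 and 239.7 at control. The QK heat arrays lay within the range of the Ws control arrays, and both Ws heat arrays lay above all 4 QK arrays. BZIP28 averaged 278.45 ± 2.47 in QK heat and 255.4 ± 23.7 in QK control (SD, n = 2 each), a 1.09-fold change, and 422.9 ± 71.6 in Ws heat and 263.7 ± 33.9 in Ws control (SD, n = 2 each), a 1.56-fold change. In heated seedlings the BZIP28 level of QK was 0.675 times that of Ws, and at control 0.972 times. For all 4 genes the difference between QK and Ws at control changed sign when single arrays were left out.

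**Figure D1:**
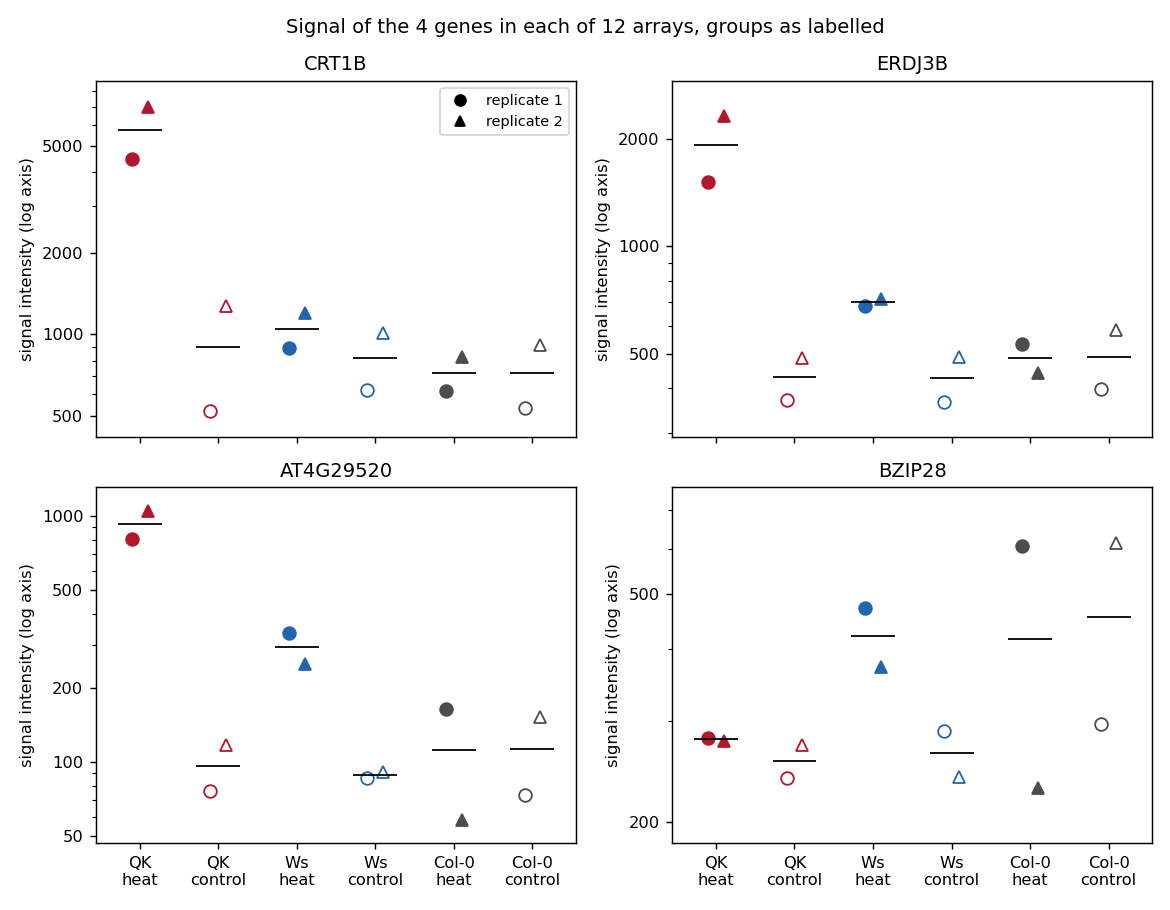
Signal intensity (log axis) of CRT1B, ERDJ3B, AT4G29520 and BZIP28 in each of the 12 arrays, grouped as labelled, with filled symbols for heat, open symbols for control, circles and triangles for replicates 1 and 2, and a line at the group mean. For CRT1B, ERDJ3B and AT4G29520 the 2 QK heat arrays lie above all others, while for BZIP28 they lie between 276.7 and 280.2, below both Ws heat arrays.

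Both replicates of QK showed large changes of the 3 folding genes and a small one of BZIP28. Within replicate 1 the log2 heat change of (signal + 16) in QK was 3.07 for CRT1B, 1.98 for ERDJ3B, 3.17 for AT4G29520 and 0.22 for BZIP28. Within replicate 2 it was 2.44 for CRT1B, 2.21 for ERDJ3B, 3.0 for AT4G29520 and 0.02 for BZIP28. The QK response minus the Ws response was positive in both replicates for the 3 folding genes, at 2.56 and 2.2 log2 units for CRT1B, 1.11 and 1.69 for ERDJ3B and 1.38 and 1.68 for AT4G29520. Over both replicates the CRT1B difference was 2.38, and it was 1.75 without QK control replicate 1 and 3.01 without QK control replicate 2. For BZIP28 this difference was -0.47 in replicate 1 and -0.58 in replicate 2. The cytosolic small heat shock gene HSP17.6C differed more between the heated QK arrays, at 18.2 in replicate 1 and 914.7 in replicate 2.

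**Figure D2:**
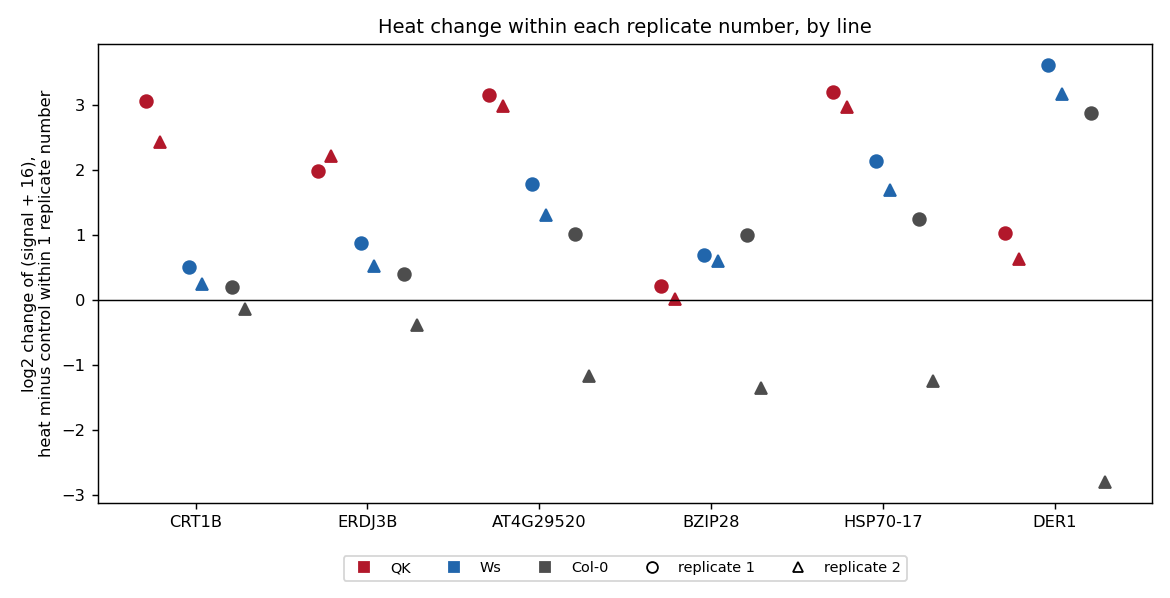
Log2 change of (signal + 16), heat minus control, within replicate 1 (circles) and replicate 2 (triangles) of QK, Ws and Col-0 as labelled, for the 4 genes and for the ER genes HSP70-17 and DER1. CRT1B, ERDJ3B, AT4G29520 and HSP70-17 changed most in QK, BZIP28 and DER1 changed more in Ws than in QK, and the triangles of Col-0 lie below 0 for all 6 genes.

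In Ws, AT4G29520 was the 1 gene of the 4 that passed the test for heat. How far the Ws signals entered the choice of the genes is not recorded, so the tests of the 4 genes in the wild types are not taken as independent evidence. The AT4G29520 log2 change was 1.55 (SE 0.25, limma adjusted p = 0.0181), which met both requirements for a call, an adjusted p below 0.05 and a minimum of 2-fold. The changes of ERDJ3B (log2 0.70, SE 0.28, limma adjusted p = 0.204), BZIP28 (0.65, SE 0.19, limma adjusted p = 0.109) and CRT1B (0.38, SE 0.48, limma adjusted p = 0.737) did not pass. All 4 genes had higher values at heat than at control within both Ws replicates. Thus 1 of 4 genes was called higher, where 3.53% of the 13284 probe sets tested were called higher and 2.09% lower. The AT4G29520 call was lost when any 1 of the 4 Ws arrays was left out, with a limma adjusted p between 0.0714 and 0.131 and a log2 change between 1.35 and 1.75. It was also lost with all 12 arrays in the fit (limma adjusted p = 0.379 at the same change), where 0.0587% of probe sets were called higher and 0.00% lower. The spread of the 12-array fit includes the Col-0 pair of replicate 2, which went against its treatment labels. With the replicate number as a block, ERDJ3B reached a limma adjusted p of 0.0245 and BZIP28 one of 0.0342, both still under the 2-fold minimum. That fit called 4.10% of all probe sets higher and 4.30% lower.

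In Col-0, AT4G29520, BZIP28 and ERDJ3B were brighter in the 2 arrays with bright heat shock genes, whatever their labels. AT4G29520 had a signal of 165.0 and 58.3 in the arrays labelled Col-0 heat replicates 1 and 2, and 73.6 and 152.2 in those labelled control replicates 1 and 2. BZIP28 had 606.8 and 228.9 in the arrays labelled heat, and 296.2 and 614.5 in those labelled control. For both genes the 2 arrays with bright heat shock genes, labelled heat replicate 1 and control replicate 2, were the brighter ones. ERDJ3B was at 531.6 and 442.9 in the arrays labelled heat and 398.5 and 582.9 in those labelled control, the same order with smaller gaps. CRT1B was at 614.5 and 827.0 in the arrays labelled heat and 533.1 and 910.9 in those labelled control, where both replicate 2 arrays exceeded both replicate 1 arrays.

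As labelled, the log2 heat change in Col-0 lay between -0.18 for BZIP28 and 0.03 for CRT1B, with a limma adjusted p of 1 for each of the 4 genes, and of 13631 probe sets 0.00% were called higher and 0.00% lower (8 had an unadjusted p under 0.05). In the 10-array fit, where each Col-0 group held 1 array assumed to vary like the others, the log2 changes were 1.01 for AT4G29520 (limma adjusted p = 0.276), 1.00 for BZIP28 (limma adjusted p = 0.171), 0.40 for ERDJ3B (limma adjusted p = 0.795) and 0.20 for CRT1B (limma adjusted p = 0.983). In that fit 1.57% of 13475 probe sets were called higher and 0.430% lower.

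None of the 4 genes was called between the accessions. With 12 arrays limma called 0.0220% of probe sets higher in Ws than in Col-0 and 0.110% lower at control, and 0.103% higher and 0.117% lower at heat. With 10 arrays these shares were 0.00742% and 0.193% at control, and 0.0891% and 0.223% at heat. The log2 difference of Ws minus Col-0 at heat was 1.4 for AT4G29520 (SE 0.45, limma adjusted p = 0.561), 0.53 for CRT1B, 0.51 for ERDJ3B and 0.16 for BZIP28. Without both arrays labelled Col-0 replicate 2 it was 0.76 for AT4G29520 (limma adjusted p = 0.848) and -0.51 for BZIP28 (limma adjusted p = 0.951). At control the differences lay between -0.67 for BZIP28 and 0.19 for CRT1B with 12 arrays (limma adjusted p = 0.999 for each gene), and between -0.16 for BZIP28 and 0.56 for CRT1B with 10.

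CRT1B differed between the replicates in every group. Its log2 level was higher in replicate 2 than in replicate 1 in 6 of 6 groups, by 0.42 to 1.26, and the largest gap was that of the QK control arrays. ERDJ3B was higher in replicate 2 in 5 of 6 groups and AT4G29520 in 4 of 6. In QK control the summed signal of 5 seed maturation genes (AT3G17520, JAL36, BGLU19, ICL and LEA18) also differed between the replicates, at 2578.3 in replicate 1 and 7273.9 in replicate 2. It was 5299.1 and 8292.7 in QK heat, 147.1 and 141.0 in Ws heat, and 117.9 and 118.3 in Ws control. All 5 of these genes were thus brighter in QK than in Ws at both temperatures, while CRT1B, ERDJ3B and AT4G29520 had overlapping ranges in QK control and Ws control. The part of the seed genes in the ER gene levels was not tested.

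**Figure D3:**
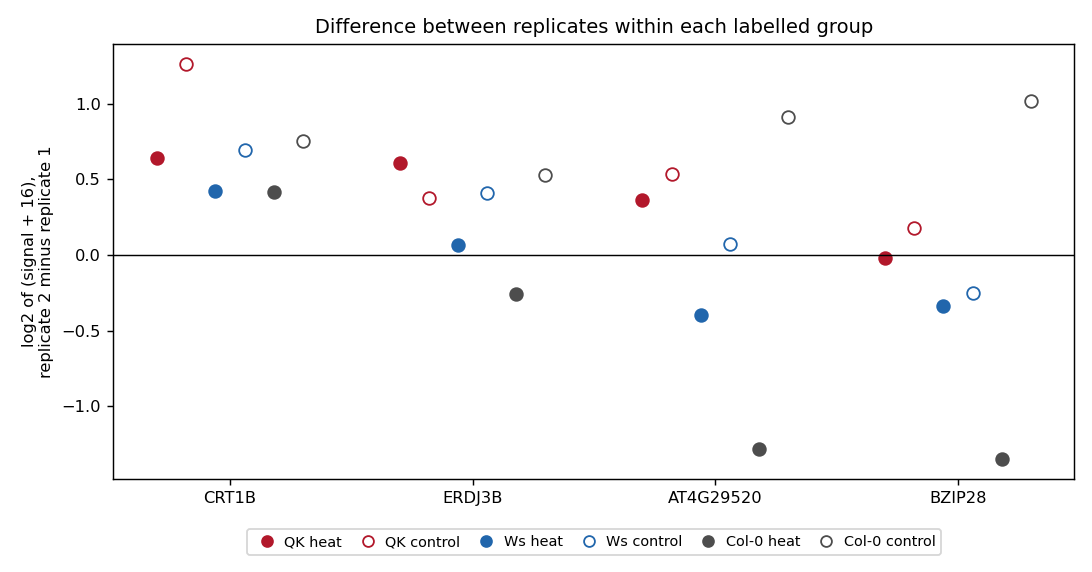
Log2 of (signal + 16) in replicate 2 minus replicate 1 for the 4 genes in each labelled group, with filled symbols for heat and open symbols for control. All 6 CRT1B points lie above 0, between 0.42 and 1.26, while AT4G29520 and BZIP28 spread to both sides, with both Col-0 groups at the ends.

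The other genes of the pathway were taken from lists with 73 further genes for ER chaperones, disulfide formation, glycan quality control, regulators of the unfolded protein response, ER-associated degradation, and entry and export. Of these, 21 had a single-gene probe set and 20 were tested, and none of those was from glycan quality control. Genes such as the BiP chaperones and most protein disulfide isomerases are not analysed here. The lists were chosen with earlier results of these data known.

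HSP70-17 (AT4G16660), an ER member of the HSP70 superfamily related to the mammalian GRP170, rose with heat in both lines. QK arrays gave 1003.8 and 1245.2 at heat, and 94.4 and 143.6 at control. Ws arrays gave 449.1 and 451.5 at heat, and 89.1 and 127.8 at control. Heat and control arrays did not overlap in either line, and the QK heat arrays lay above the Ws heat arrays. The log2 change was 3.09 in QK (SE 0.26, limma adjusted p = 0.00388) and 1.92 in Ws (SE 0.26, limma adjusted p = 0.00885). The difference between these responses, 1.17 log2 units, did not pass (SE 0.36, limma adjusted p = 0.404). With the replicate number as a block it did not pass either (limma adjusted p = 0.0567). At heat HSP70-17 was log2 1.28 higher in QK, relative to Ws (limma adjusted p = 0.0416). The HSP70-17 call in Ws was lost without Ws control replicate 1, without Ws heat replicate 1 and without Ws heat replicate 2, with an adjusted p up to 0.0808. With all 12 arrays in the fit HSP70-17 passed in neither line (limma adjusted p = 0.0642 in QK and adjusted p = 0.379 in Ws). The spread of the 12-array fit includes the Col-0 pair of replicate 2, which went against its treatment labels.

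DER1 (AT4G29330), a derlin of the machinery that moves misfolded proteins out of the ER for degradation, rose in heated Ws. In QK its signal was 299.8 and 305.4 at heat, and 138.0 and 191.6 at control. In Ws it was 1958.4 and 2091.5 at heat, and 143.8 and 216.6 at control. In Col-0 it was 1454.3 and 208.3 in the arrays labelled heat, and 182.3 and 1549.4 in those labelled control, the same split as for BZIP28. DER1 rose in Ws by log2 3.40 (SE 0.24, limma adjusted p = 0.000917), and its change of 0.83 in QK did not pass (SE 0.24, limma adjusted p = 0.143). Without the Col-0 pair of replicate 2, which left 1 array in each Col-0 group, the DER1 log2 change in Col-0 was 2.89. The QK response was lower than the Ws response by the test of the difference (log2 -2.57, SE 0.35, limma adjusted p = 0.0269). With the replicate number as a block this difference passed as well (limma adjusted p = 0.00344). In the 8-array fit without the block, that call was lost without any 1 of the 8 arrays except Ws control replicate 2. The limma adjusted p was then up to 0.173 and the log2 difference between -2.79 and -2.30. The call was also lost with all 12 arrays, where the limma adjusted p was 1 for the difference and 0.379 for the Ws response. The spread of the 12-array fit includes the Col-0 pair of replicate 2, which went against its treatment labels. A further probe set listed for DER1 stayed between 5.5 and 9.2 in every array and was not used.

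Of the 20 tested genes, 2 were called higher in heated Ws, HSP70-17 and DER1, and 0 lower, where 3.53% of all probe sets were called higher and 2.09% lower. In QK 1 was called higher, HSP70-17, and 0 lower, where 1.21% of all probe sets were called higher and 1.41% lower by limma. In the difference of the responses 0 were called higher and 1 lower, DER1, against 0.0979% and 1.28% of all probe sets. In heated seedlings 1 was called higher and 1 lower in QK than in Ws, against 2.0% and 2.76%. At control 0 of 20 were called, against 0.166% and 0.0226%. An unadjusted limma p under 0.05 was reached by 2 of the 20 in Ws, 5 in QK, 3 in the difference, 9 between the lines at heat and 0 at control. Over all probe sets the shares with such a p were 22.1% in Ws, 19.3% in QK, 6.62% in the difference, 17.5% at heat and 6.88% at control. With all 12 arrays in the fit limma called 0 of the 20 in the Ws response, the QK response, their difference and the comparison at heat, where 2, 2, 0 and 9 had an unadjusted p under 0.05, as did 12.6%, 10.7%, 3.13% and 12.4% of all probe sets. That fit called 0.0587% of all probe sets higher and 0.00% lower in Ws, 0.249% higher and 0.00734% lower in QK, 0.00% either way in the difference, and 1.2% higher and 0.403% lower in QK at heat.

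The median log2 heat change of the 20 genes was 0.25 in QK, with 15 of 20 above 0, beside a median of -0.00 over all tested probe sets, of which 49.8% were above 0. In Ws it was -0.04, with 9 of 20 above 0, beside -0.05 and 45.0% over all. For the QK response minus the Ws response the median was 0.27, with 17 of 20 above 0, beside 0.05 and 56.6% over all.

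Among the chaperones CNX2, a calnexin named here after its values were seen, was at 337.8 and 268.3 in heated QK, and at 140.9 and 97.7 in QK control. Ws had 196.4 and 102.6 at heat, and 174.1 and 87.4 at control. The QK heat arrays lay above all QK control and Ws arrays, and the log2 change in QK was 1.25 (SE 0.40, limma adjusted p = 0.164). With the replicate number as a block it passed (limma adjusted p = 0.00877), which made 2 of 20 genes called higher in QK, against 2.09% of all probe sets higher and 3.40% lower in that fit.

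Beside BZIP28, 4 regulators were tested, and limma called 0 in either line (0 also at an unadjusted p under 0.05). They were BZIP17 and BZIP60, transcription factors of the same response, and the Golgi proteases S1P and S2P that release membrane-bound bZIP factors. Their log2 heat changes lay between -0.12 and 0.17 in QK and between -0.48 and 0.12 in Ws. Between QK and Ws at heat 0 of the 4 were called. An unadjusted limma p under 0.05 was reached there by 2, beside 17.5% of all probe sets. BZIP60 had the lowest Ws change. Its signal was 275.4 and 358.4 in QK heat and 223.6 and 372.0 in QK control, against 161.8 and 126.9 in Ws heat and 263.5 and 162.0 in Ws control. In QK the heat and control arrays overlapped, and in Ws both heat arrays lay below both control arrays, by little for the nearest pair (limma adjusted p = 0.465). The 5 other degradation genes tested, the disulfide isomerase PDIL5-1 and the 7 genes of entry and export had 0 limma calls in QK and Ws. Among these, the Sec61 channel subunit SEC61A1 was at 328.7 and 373.1 in QK heat and 172.4 and 271.0 in QK control, against 167.3 and 215.2 in Ws heat and 166.8 and 228.4 in Ws control. Its log2 change in QK was 0.66 (limma adjusted p = 0.258).

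**Figure D4:**
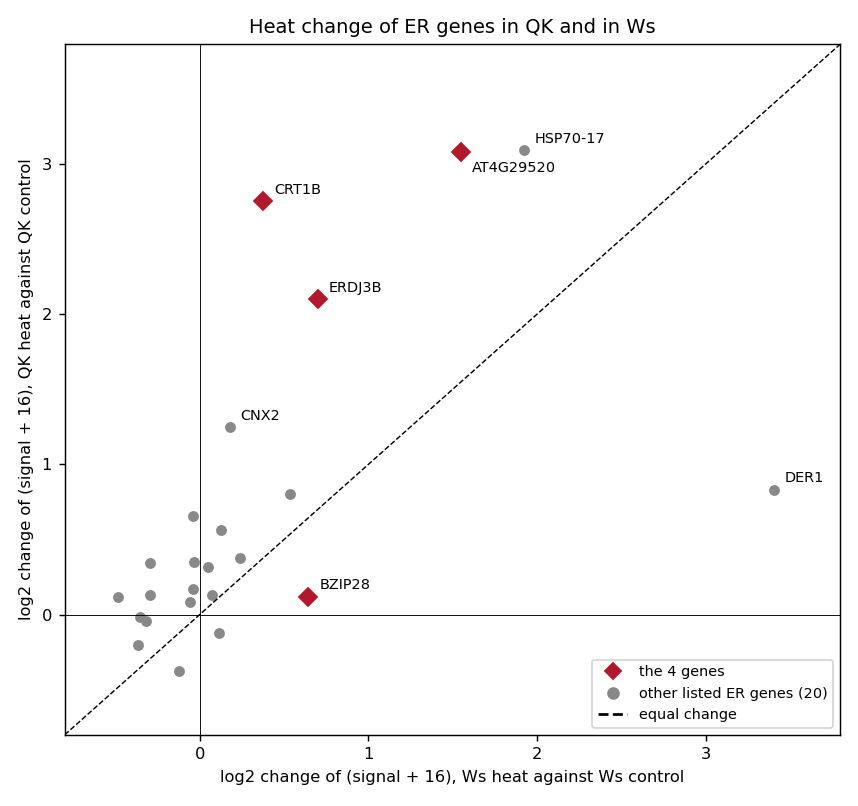
Log2 heat change of (signal + 16) in QK (vertical axis) against that in Ws (horizontal axis) for the 4 genes (diamonds) and 20 other tested ER genes (circles), with a dashed line where both changes are equal. CRT1B, ERDJ3B, AT4G29520 and HSP70-17 lie above the line, with QK changes of 2.1 to 3.09, and DER1 lies far below it, at 3.40 in Ws and 0.83 in QK.

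The genes with the most similar patterns were found by Pearson's correlation of log2(signal + 16) over the 12 arrays, which does not use the treatment labels. It was computed against 7257 single-gene probe sets of other genes, and the points share the 6 groups and the replicate numbers, so the values are a description. For CRT1B the closest was GFAT (AT3G24090), which encodes the first enzyme of the pathway to UDP-N-acetylglucosamine (r = 0.985), followed by AT5G47920 (0.965) and AT3G53670 (0.963). GFAT was at 105.8 and 124.3 in heated QK, and between 32.6 and 55.8 in the other 10. For ERDJ3B the closest were AT4G34630 (r = 0.982), AT3G16330 (0.979) and AT5G47920 (0.964). AT4G34630 had 2921.2 and 4392.7 in QK heat, 234.6 and 312.3 in QK control, 498.3 and 652.9 in Ws heat and 172.9 and 266.9 in Ws control. AT5G47920 was at 94.8 and 144.4 in QK heat and between 16.6 and 35.2 in the other 10 arrays. Those 10 values lay below the 35th percentile of every array, at 40.3 to 47.0. It passed the filter through the QK heat arrays alone, and its correlations with CRT1B and ERDJ3B rest on them. Like CRT1B and ERDJ3B, the genes found here were brightest in both QK heat arrays. That follows in part from the search, as CRT1B and ERDJ3B had been chosen for standing out there.

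For AT4G29520 the closest were AT5G54860 (r = 0.988), AT4G18950 (0.984) and HSP70-17 (0.980). All 3 were brightest in the QK heat arrays and next brightest in the Ws heat arrays. This order follows in part from the search for genes like AT4G29520. For BZIP28 the closest were AT5G18340 (r = 0.972), AT5G23480 (0.961) and AT1G01940 (0.950). AT5G18340 had 9.8 and 12.8 in QK heat, 12.4 and 10.7 in QK control, and 12.9 and 10.7 in Ws control. It had 90.5 and 68.7 in Ws heat, and 233.5 and 222.7 in the Col-0 arrays with bright heat shock genes. Outside Ws heat and those Col-0 arrays, AT5G18340 lay below the 35th percentile of every array, at 40.3 to 47.0. AT5G23480 lay below it in Ws heat as well, at 31.1 and 18.9, and was at 49.9 and 42.8 in those Col-0 arrays. Their correlations with BZIP28 thus rest on few arrays. In the 8 arrays of Ws and QK, GFAT, AT4G34630 and AT5G54860 were again the closest to CRT1B, ERDJ3B and AT4G29520 (r = 0.995, 0.992 and 0.996). For BZIP28, AT5G18340 was there at rank 30 (r = 0.938), AT5G23480 at rank 35 and AT1G01940 at rank 29.

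Among the 4 genes themselves, r over the 12 arrays was 0.955 between ERDJ3B and CRT1B, 0.961 between ERDJ3B and AT4G29520 and 0.878 between CRT1B and AT4G29520. Between BZIP28 and the 3 others it lay between -0.19 and 0.18. CRT1B, ERDJ3B and AT4G29520 had been chosen for standing out in heated QK, and those arrays are among the 12. Their high correlations with each other are therefore in part set by the choice and are a description. In the 8 arrays of Ws and QK the correlation of BZIP28 was -0.07 with CRT1B, 0.11 with ERDJ3B and 0.31 with AT4G29520.

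**Figure D5:**
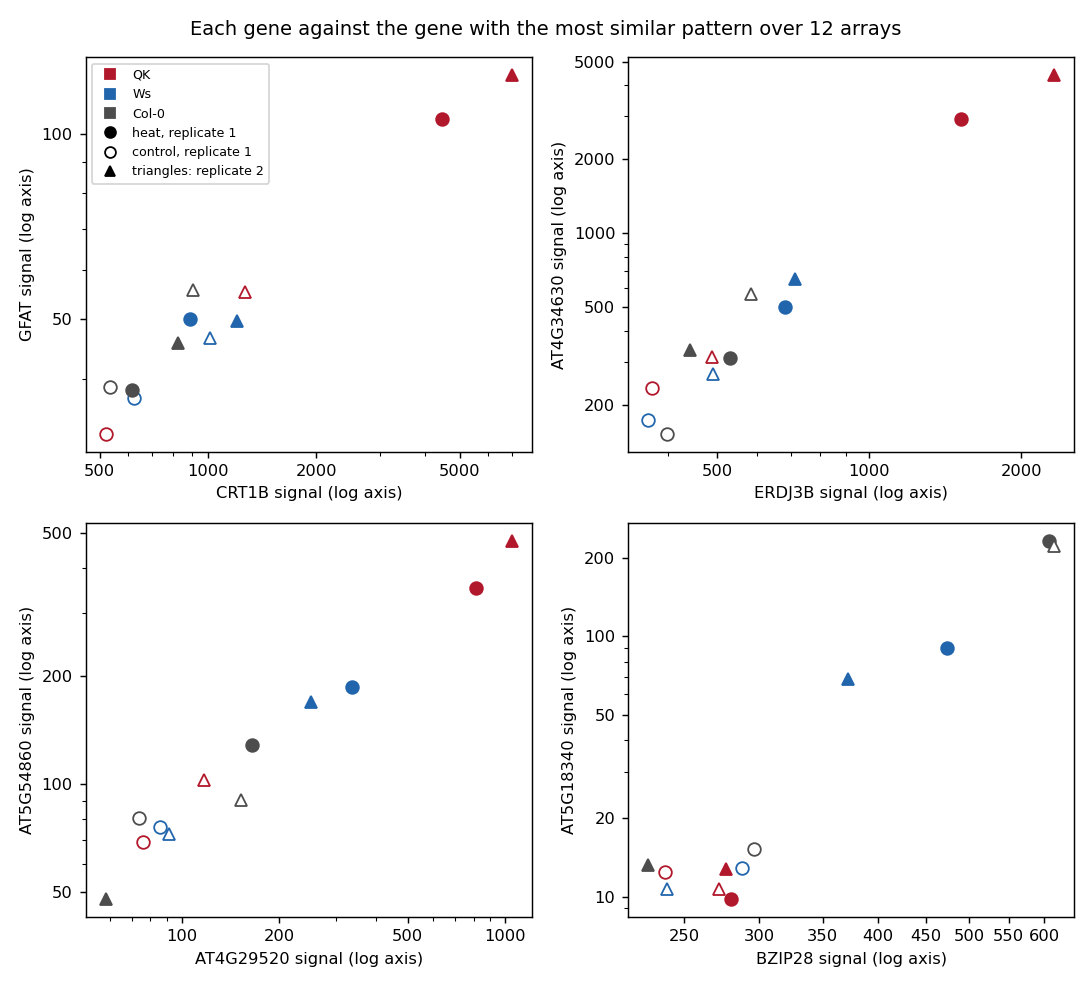
Signal of each of the 4 genes (horizontal log axes) against that of the gene most similar to it over the 12 arrays (vertical log axes), 1 point per array, coloured by line, with filled symbols for heat, open symbols for control, and circles and triangles for replicates 1 and 2. In the panels of CRT1B and ERDJ3B the 2 QK heat arrays stand far from the other 10, and in the panel of BZIP28 both Ws heat arrays and 2 Col-0 arrays stand above all QK arrays.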

How the data were processed

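RNA was measured on 12 Affymetrix arrays, 2 in each of 6 groups taken from the sample titles. The authors deposited 1 signal intensity per probe set and array on a linear scale, and the submitters' processing notes name GCOS 1.4. Summary algorithm, scaling target, detection calls and genome build are not given in the sources used here. Array medians lay between 75.6 and 87.3, and no further normalization was applied. Of 18465 probe sets 10396 had exactly 1 annotated gene, 398 several and 7671 none listed, and 10340 matched the TAIR10.1 gene table.

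Signals were transformed as log2(signal + 16). Probe sets above the 35th percentile of their array in at least 2 arrays were tested, 13284 in the 8 arrays of Ws and QK and 13631 in all 12, and all 4 genes were among both. limma 3.58.1 in R 4.3.3 fitted 1 mean per group with trended empirical Bayes variances (4 residual degrees of freedom with 8 arrays, 6 with 12). Tests were two-sided and adjusted by Benjamini-Hochberg over all tested probe sets. Folds are of the signal plus 16 and understate the change of dim genes. The fit was tried on simulated data with independent noise in each array, which held no difference shared by a replicate number. The brightest single-gene probe set stood for a gene.

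Named were the 4 genes, the called genes of the ER lists, or their 3 largest changes where none was called, and the 3 genes most like each of the 4. The members and lists were chosen with earlier results of these data known. BZIP60, SEC61A1 and CNX2 were named after their values were seen.

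To check for pairing by replicate number, the replicate 2 minus replicate 1 differences of 2 groups were correlated across probe sets. This correlation was 0.587 to 0.807 in 6 of 6 pairs of Ws and QK groups, so the replicate numbers appear to pair these arrays. The main fits did not use this pairing, and the fits with the replicate number as a block did. Over all pairs of groups the correlation exceeded 0.1 in 14 of 15, and it was -0.173 between the Col-0 groups. Fits with the replicate number as a block, other normalizations, constants of 1 and 64, other filters, no variance trend, no minimum fold and leaving out each array were alternatives.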

Additional observations from a re-analysis of the deposited data

Results flagged for a closer look

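DER1 was picked out because its heat response differed between QK and Ws by the test of the difference itself. The QK response minus the Ws response was -2.57 log2 units (SE 0.35, limma adjusted p = 0.0269), and it was negative within both replicates. DER1 was the only 1 of the 20 other tested ER genes with such a call in the 8-array fit, and the 4 genes of the report were not tested for it. Groups of 2 arrays were too small for a check of single arrays that stand apart.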

How the results depend on the processing

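Quantile normalization, centring on the 75th percentile, a constant of 1, no minimum fold, no variance trend, no filter and the filter set to the 50th percentile changed no call of the 4 genes, HSP70-17 or DER1, and each count of calls stayed within 1.5 times. The sign turned under these settings in QK against Ws at control alone, for ERDJ3B (log2 0.0094, but -0.014 after quantile normalization and -0.035 after centring) and CRT1B (0.034, but -0.0083 and -0.011). A constant of 64 put CRT1B (2.68) above AT4G29520 (2.63) in the QK heat response, as did leaving out QK control replicate 2 (3.39 and 3.35). It gave 15 calls for QK against Ws at control, instead of 25. With the replicate number as a block, limma called 728 probe sets for QK heat against QK control instead of 348, 369 for the difference of responses instead of 183, 110 for QK against Ws at control, 976 instead of 633 for QK against Ws at heat, 41 instead of 18 for Ws against Col-0 at control and 55 instead of 30 at heat. Of the other ER genes 2 instead of 1 were then called in QK, and the block changed no other call of an ER gene in these comparisons.

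With all 12 arrays as labelled the counts were 8 instead of 747 for Ws heat, 35 for QK heat, 0 for the difference (limma, 426 at an unadjusted p under 0.05) and 219 for QK against Ws at heat, and 0 other ER genes were called. AT4G29520 (log2 1.55), HSP70-17 (1.92) and DER1 (3.40) in Ws, HSP70-17 in QK (3.09) and the DER1 difference (-2.57) kept their values and lost their calls. The spread of that fit includes the Col-0 pair of replicate 2. Without that pair 269 probe sets were called in Col-0, and the log2 values with the opposite sign were 0.084 for ERDJ3B and 0.22 for AT4G29520 between Ws and Col-0 at control, -0.51 for BZIP28 at heat, and 1.01 for AT4G29520 and 1.00 for BZIP28 in the Col-0 response.

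Leaving out 1 array at a time gave 203 to 712 calls for Ws heat, 53 to 273 for QK heat, 11 to 104 for the difference, 0 to 79 for QK against Ws at control, 185 to 638 at heat, 2 to 23 for Ws against Col-0 at control and 2 to 43 at heat. The lowest counts for Ws heat and QK heat came without Ws heat replicate 1 and without QK heat replicate 2. Of the other ER genes 1 to 2 were called in Ws, and 0 to 1 in the difference. AT4G29520 in Ws lay between 1.35 and 1.75. Between Ws and Col-0 at control ERDJ3B lay between -0.45 and 0.084, CRT1B between -0.19 and 0.56 and AT4G29520 between -0.69 and 0.22, and at heat BZIP28 lay between -0.51 and 0.83. In the Col-0 response ERDJ3B lay between -0.26 and 0.27, CRT1B between -0.35 and 0.41, AT4G29520 between -0.72 and 0.56 and BZIP28 between -0.86 and 0.49. For QK against Ws at control ERDJ3B lay between -0.19 and 0.21, CRT1B between -0.60 and 0.67, AT4G29520 between -0.18 and 0.35 and BZIP28 between -0.17 and 0.083. The cause of these sign changes was not tested.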
